A study of Mus musculus with 8 samples.

Results

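The 4 ONT cDNA libraries of the series were compared here, 2 from undifferentiated cells (Undiff) and 2 from cells after differentiation with retinoic acid (Day4), out of 8 libraries in all. They were chosen by their labelled kit and state, and every gene in the count tables was considered. The cells belonged to R1, an established mouse line of embryonic stem cells (ESCs), which are pluripotent and derive from the early embryo, and no genotype other than that of the line was given. For Day4, cells were kept as floating embryoid bodies (aggregates) for 4 days without LIF, the cytokine that holds mouse ESCs in the undifferentiated state, and then received retinoic acid (RA) for 4 more days. The sample labels give the RA dose as 2 mM and the series text gives it as 2 µM. The sources also differ on the Undiff cells, whose source label reads embryonic stem cells while their tissue label, like that of Day4, reads embryoid bodies. No library of untreated embryoid bodies was among these samples, so the effect of RA cannot be told apart from those of aggregation, LIF withdrawal and time. The replicates came from separately grown cultures according to the methods, n = 2 per state, and p-values measure only the spread between these libraries.

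RA is made from vitamin A, enters the nucleus and binds retinoic acid receptors, which sit on DNA as dimers with retinoid X receptors and switch genes on when the ligand arrives. Among the textbook targets are a receptor gene, enzymes that destroy RA and the Hox genes, which give cells their position along the body axis. ESCs hold their state through a circuit of transcription factors, of which OCT4 (Pou5f1), SOX2 and NANOG form the core. In embryoid bodies, RA is known to direct cells toward neural, endodermal and mesodermal derivatives according to dose and time.

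Each library was a table of reads per gene from long reads of PCR-amplified cDNA, with 948657 and 2088592 reads on genes in the Undiff libraries and 1318178 and 2077327 in the Day4 libraries. A share of reads is given below as CPM (counts scaled to a common library total of 1e+06 reads on genes), and 3 reads, the limit that a count of 0 allows, correspond to between 1.44 and 3.16 CPM in these libraries. These limits and the intervals given below cover counting error only, because PCR copies are not independent molecules. Of the 165 genes with a read that are named here, 41 share exon sequence with a gene on the opposite strand. This count leaves out Pax6 and the members of the mesoderm, endoderm and endothelial lists named below only as not called. Since the strand setting used to count the cDNA reads is not given, reads of the 41 may include those of the other gene. Genes are compared between states and not with each other, since CPM does not account for length. In bulk RNA, fewer cells of a type and less RNA per cell cannot be told apart.

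Of 24421 genes in the tables, 16669 had a read in at least 1 of the 4 libraries and 10271 had a mean normalized count of at least 5. By the Wald test of DESeq2 with Benjamini-Hochberg adjustment, 1842 genes (17.9% of those tested) were differentially expressed (DEGs) at an adjusted p of at most 0.05 and a change of at least 1 on the log2 scale. Of these, 893 (8.69%) were higher and 949 (9.24%) were lower at Day4. The log2 fold changes are shrunken estimates, which pull genes with few reads toward 0. They rest on size factors (0.5359 and 1.309 in Undiff, 0.9065 and 1.68 at Day4) and CPM on read totals. Relative to the totals the factors were larger at Day4, so log2 fold changes tend to lie below the change in CPM. Changes of more than 4 on this scale were found for 306 of the higher and 214 of the lower genes, whereas the median over all tested genes was 0.002. The count depended on every library: without the first or second Undiff library 1020 or 800 genes were called, and without the first or second Day4 library 768 or 709. Of 152 DEGs named here, 90 were called in all 4 of these fits and 17 in none of them, and a range given below for a list is that of its calls over these 4 fits. Shares of a list are to be read against the 8.69% higher and 9.24% lower of all tested genes. Most genes were named for large changes, so a lack of overlap between states stated for them below only describes their values. The share of all tested genes without overlap was not counted.

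**Figure D1:**
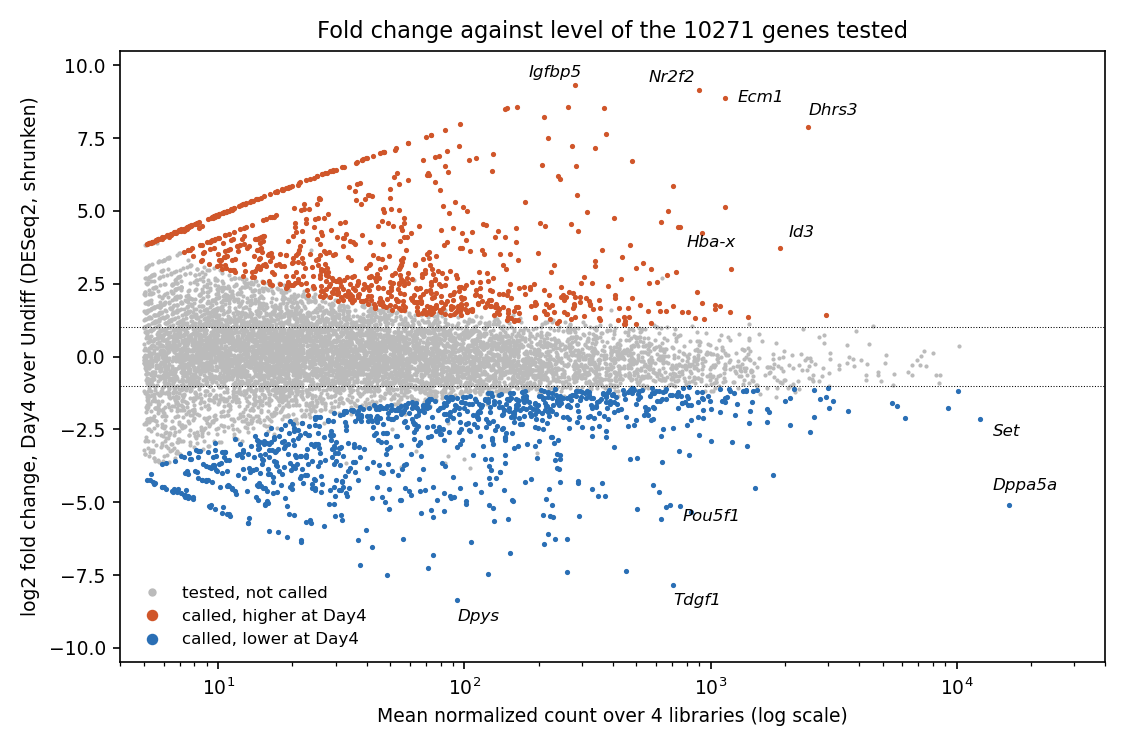
Each point is 1 of the 10271 genes tested, placed by its mean normalized count over the 4 cDNA libraries (horizontal, log scale) and its shrunken log2 fold change, Day4 over Undiff (vertical). Orange points are the 893 DEGs higher at Day4 and blue points the 949 lower ones, and the dotted lines mark a change of 1 in either direction. Dppa5a is the point with the most reads, and Dhrs3, Nr2f2 and Ecm1 combine many reads with a large rise.

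The genes with the largest rise were nearly silent in Undiff. Igfbp5, a secreted protein that binds insulin-like growth factors, had no read in either Undiff library and 609 and 757 reads at Day4, a level at least 180-fold higher. Nr2f2 (COUP-TFII), an orphan nuclear receptor, went from 0 and 4 reads to 1321 and 3563 (log2 fold change 9.14 ± 0.70 SE, DESeq2 adjusted p = 4.6e-35). Ecm1, a glycoprotein of the extracellular matrix, went from 1 and 6 reads to 2466 and 3145 (8.87 ± 0.62). The other 5 of the 8 largest rises were those of Nfia, a transcription factor, Rgs5, a regulator of G-protein signalling, Ptn (pleiotrophin), a secreted growth factor, Asb4 and Hoxb5. For each of these 8 genes both Day4 libraries had far more reads than either Undiff library.

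The largest falls were those of Dpys, an enzyme of pyrimidine breakdown, with 88 and 275 reads in Undiff and none at Day4 (at least 60-fold lower), and of Tdgf1 (Cripto), a co-receptor for Nodal, with 848 and 1606 reads in Undiff and 2 and 12 at Day4 (log2 fold change -7.83 ± 0.54 SE, DESeq2 adjusted p = 4.2e-44). Next came Fgf17, a growth factor, with 48 and 136 reads against 0 and 0, the keratin Krt42 with 88 and 435 against 1 and 1, and Platr10, a noncoding RNA of ESCs, with 359 and 485 against 2 and 4. Trh, the precursor of thyrotropin-releasing hormone, had 532 and 1069 reads in Undiff and 4 and 8 at Day4. In all 6 of these genes both Undiff libraries lay far above both Day4 libraries.

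The core pluripotency factors were lower at Day4. Pou5f1 (OCT4) had 670 and 1898 reads in the Undiff libraries and 2 and 55 reads in the Day4 libraries, that is 808 ± 143 against 14.0 ± 17.6 CPM (SD, n = 2), a log2 fold change of -5.08 ± 1.19 (SE, DESeq2 adjusted p = 0.00049). Sox2 had 117 and 305 reads in Undiff and 1 and 22 at Day4 (-4.65 ± 0.61, DESeq2 adjusted p = 4.5e-12). Nanog had 99 and 462 reads in Undiff and 1 and 28 at Day4 (-3.97 ± 1.20, DESeq2 adjusted p = 0.012). For all 3 genes the Undiff libraries were high and the states did not overlap, and within Day4 the second replicate was higher than the first. Without the first or the second Undiff library the DESeq2 adjusted p was 0.061 or 0.092 for Pou5f1, 0.15 or 0.2 for Sox2 and 0.16 or 0.38 for Nanog. Of 8 core factors tested, 6 were lower, none was higher, and the median log2 fold change was -4.35 (2 to 7 lower with 1 library left out). The other 3 DEGs were Utf1, a chromatin protein of ESCs (-5.13), Sall4, a zinc finger factor (-4.05), and Otx2, a factor of the primed state, which had 38 and 21 reads in Undiff and none at Day4.

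Factors of the naive state, which marks ESCs that resemble the inner cell mass, were lower as well. Zfp42 (REX1), the usual marker of that state, had 763 and 2453 reads in Undiff and 4 and 65 at Day4 (log2 fold change -5.33 ± 1.08, DESeq2 adjusted p = 3e-05). Esrrb, an orphan nuclear receptor, had 41 and 182 reads against 0 and 8, and Nr0b1 (DAX1) had 19 and 146 against 0 and 1. Klf4 was lower by less, with 14 and 58 reads against 3 and 13 (-2.44 ± 0.81, DESeq2 adjusted p = 0.027). With 1 library left out the DESeq2 adjusted p of Klf4 was between 0.088 and 0.61, and that of Esrrb was 0.45 or 0.63 without the first or second Undiff library. Of 11 naive factors tested, 8 were lower and none was higher, with a median of -3.62 (3 to 6 lower with 1 library left out).

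Of 24 other genes known for high expression in ESCs, 21 were lower and none was higher, with a median of -4.51 (12 to 21 lower with 1 library left out). Dppa5a, which encodes an RNA-binding protein of ESCs, was the gene with the most reads in both Undiff libraries (1.81% and 2.02% of reads on genes). It had 17194 and 42163 reads in Undiff and 99 and 1715 at Day4 (log2 fold change -5.10 ± 1.02, DESeq2 adjusted p = 2.3e-05). Fgf4, the growth factor through which ESCs signal to one another, had 97 and 152 reads against 0 and 2, and Spp1 (osteopontin) had 507 and 2005 against 22 and 40 (-5.57 ± 0.44). Tdh, the threonine dehydrogenase on which mouse ESCs depend, had 575 and 1986 reads in Undiff and 3 and 56 at Day4 (-5.16 ± 1.11). All 4 genes were separated between the states, although without the second Undiff library the DESeq2 adjusted p was 0.056 for Dppa5a and 0.066 for Tdh.

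Of 8 tested enzymes and cofactors of DNA methylation, 5 were lower and none was higher (1 to 4 lower with 1 library left out). Dnmt3l, the cofactor of the de novo methyltransferases, had 139 and 817 reads in Undiff and 0 and 9 at Day4 (log2 fold change -5.46 ± 1.30, DESeq2 adjusted p = 0.0006). Without the first or second Undiff library the DESeq2 adjusted p of Dnmt3l was 0.3 or 0.46. Dnmt3b, a de novo enzyme, changed by -3.96, Tet1, which oxidizes methylcytosine, by -2.56 and Uhrf1, which guides maintenance methylation, by -1.86. Without the second Undiff library these changes were smaller, at -2.963, -2.119 and -1.813. A list of genes of the germline and of the rare ESCs that resemble the early cleavage embryo held 10 tested members, of which 1 (10%, near the background), Tex19.1, was lower.

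Rarb, the receptor gene that RA itself switches on, and Cyp26a1, the enzyme that breaks RA down, are the best-known direct targets, and their promoters are shown because each holds the kind of element that the receptors bind. That element, called DR5, is a direct repeat of a short site (AGGTCA or AGTTCA or GGGTCA or GGTTCA) with 5 bases between the repeats, searched on both strands from 250 bases before to 50 bases after the RefSeq start site. The sequences are from RefSeq on GRCm38.p6 (the mm10 build), read 5′ to 3′ on the strand of the gene, with the DR5 match in capitals. The Rarb window is chr14:16575427-16575726 on the minus strand and its match begins 53 bases before the start. The Cyp26a1 window is chr19:37697558-37697857 on the plus strand and its match begins 32 bases before the start, on the other strand.
Rarb promoter: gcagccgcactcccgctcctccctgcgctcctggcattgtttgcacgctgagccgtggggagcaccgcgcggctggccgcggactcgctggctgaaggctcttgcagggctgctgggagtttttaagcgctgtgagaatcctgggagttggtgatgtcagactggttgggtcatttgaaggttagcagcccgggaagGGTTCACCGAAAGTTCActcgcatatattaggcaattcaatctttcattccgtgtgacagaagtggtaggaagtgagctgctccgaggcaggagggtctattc
Cyp26a1 promoter: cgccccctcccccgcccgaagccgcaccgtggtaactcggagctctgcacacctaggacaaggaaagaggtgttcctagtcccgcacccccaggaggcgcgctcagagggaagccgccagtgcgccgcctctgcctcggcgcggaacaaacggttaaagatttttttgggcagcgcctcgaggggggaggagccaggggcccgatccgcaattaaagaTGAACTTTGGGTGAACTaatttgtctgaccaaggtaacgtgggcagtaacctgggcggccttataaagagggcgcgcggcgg

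A match of this kind was rare. It was present in the promoters of 31 of 27025 genes with a sequence (0.115%). Among tested genes with a sequence, 4 of 640 DEGs higher at Day4 held it, as did 0 of 704 lower DEGs and 1 of 6525 genes that were not called. Beside Rarb and Cyp26a1 the higher ones were Hbb-y, an embryonic globin, and Tnfsf13b, a cytokine for B cells (16 and 43 reads at Day4 against 1 and 0, chosen by the match after its values were seen), whose call was lost in 3 of the 4 fits with a library left out (DESeq2 adjusted p between 0.15 and 0.52). A match describes the letters in the window only.

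Both genes were at or near 0 reads in each Undiff library and had 64 reads or more in each Day4 library. Rarb had 1 and 0 reads in Undiff and 136 and 257 at Day4 (log2 fold change 6.85 ± 0.97, DESeq2 adjusted p = 2.5e-10). With reads of a state pooled over its libraries and divided by their pooled totals, the ratio was 350, with a 95% counting interval of 63 to 14000. Such a pooled ratio differs from the ratio of mean CPM. Cyp26a1 had 0 and 1 reads in Undiff and 64 and 127 at Day4 (5.93 ± 1.04, DESeq2 adjusted p = 7.5e-07), a pooled ratio of 170 with an interval of 30 to 6800. Rarb overlaps Top2b on the opposite strand. Top2b was itself a DEG higher at Day4, with a log2 fold change of 2.311 without the second Undiff library and 2.840 without the first Day4 library. The related enzyme Cyp26b1 had 1 and 0 reads in Undiff and 137 and 273 at Day4. The other receptor genes of the pathway were not called: Rara changed by 0.03 ± 0.73 and Rarg by -1.37 ± 0.73.

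Of 29 genes of the retinoid pathway in the list, 25 were tested, 16 were higher and 1 was lower, with a median log2 fold change of 3.44 (10 to 14 higher with 1 library left out). Members with no reads in Undiff met the minimum count through Day4 and so had to differ, which holds for the lists below too. Among the enzymes, Dhrs3, a retinaldehyde reductase that limits RA synthesis, had the most reads, with 17 and 11 in Undiff and 5096 and 7257 at Day4 (11.6 ± 8.95 against 3680 ± 263 CPM, SD, n = 2, log2 fold change 7.87 ± 0.51, DESeq2 adjusted p = 2.3e-50). Aldh1a2, which makes RA, had 0 and 1 reads against 14 and 37. Among the carriers, Crabp2, which delivers RA to the nucleus, had 42 and 153 reads against 834 and 1694 (3.23 ± 0.40). Crabp1 was not called (1.02 ± 0.58, DESeq2 adjusted p = 0.32): its 154 and 75 reads in Undiff were 162 and 35.9 CPM, against 271 and 254 CPM at Day4. Stra6, the membrane receptor through which cells take up retinol, had 0 and 1 reads against 18 and 57. The call of Aldh1a2 was lost whichever library was left out (DESeq2 adjusted p between 0.089 and 0.48), and that of Stra6 without the second library of either state (0.085 for Undiff and 0.3 for Day4).

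Transcription factors that act beside the receptors were also higher. Nr2f1 (COUP-TFI) had no reads in Undiff and 154 and 275 at Day4, at least 54-fold higher, and Meis2, a homeodomain partner of Hox proteins, had no reads against 113 and 284, at least 48-fold higher. Meis1, another such partner, rose by 6.09 ± 0.59 on the log2 scale. The member that was lower was Ncoa3, a coactivator of nuclear receptors that is abundant in ESCs (428 and 675 reads against 198 and 241, -1.83 ± 0.42, DESeq2 adjusted p = 0.00041), although without the first Undiff or the second Day4 library its adjusted p was 0.059 or 0.11.

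Of the 39 Hox genes in the tables, 6 had no read in the 4 libraries, 32 had a higher mean CPM at Day4 and 1 had a lower one. The summed level of the family was 7.38 and 8.62 CPM in Undiff and 1189 and 1241 CPM at Day4. The minimum mean count was met by 21 of them, all of which were DEGs higher at Day4, and since they had few or no reads in Undiff they met it through the Day4 libraries (15 to 20 called with 1 library left out). The other 18 had at most 20 reads over the 4 libraries. Hoxb5 had no reads in Undiff and 294 and 439 at Day4, at least 94-fold higher. Hoxc4 had 0 and 1 reads against 165 and 265, Hoxc5 had 0 and 1 against 181 and 300, and Hoxd8 had 0 and 0 against 98 and 123. These 4 genes were picked for their large changes, and their states did not overlap. Hoxb1, an anterior gene that responds early to RA, had 113 and 70 reads at Day4, against 0 and 2 in Undiff. Among posterior genes, Hoxa10 had 24 and 48 reads at Day4 and Hoxb13 had 37 and 80, against at most 2. The call of Hoxa10 was lost in 3 of the 4 fits with a library left out. Hotairm1, the noncoding RNA at the anterior end of the HoxA cluster, had 3 and 7 reads against 533 and 611 (log2 fold change 6.19 ± 0.60, DESeq2 adjusted p = 3.2e-22). Hoxb5 and Hotairm1 each overlap a gene on the opposite strand.

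**Figure D2:**
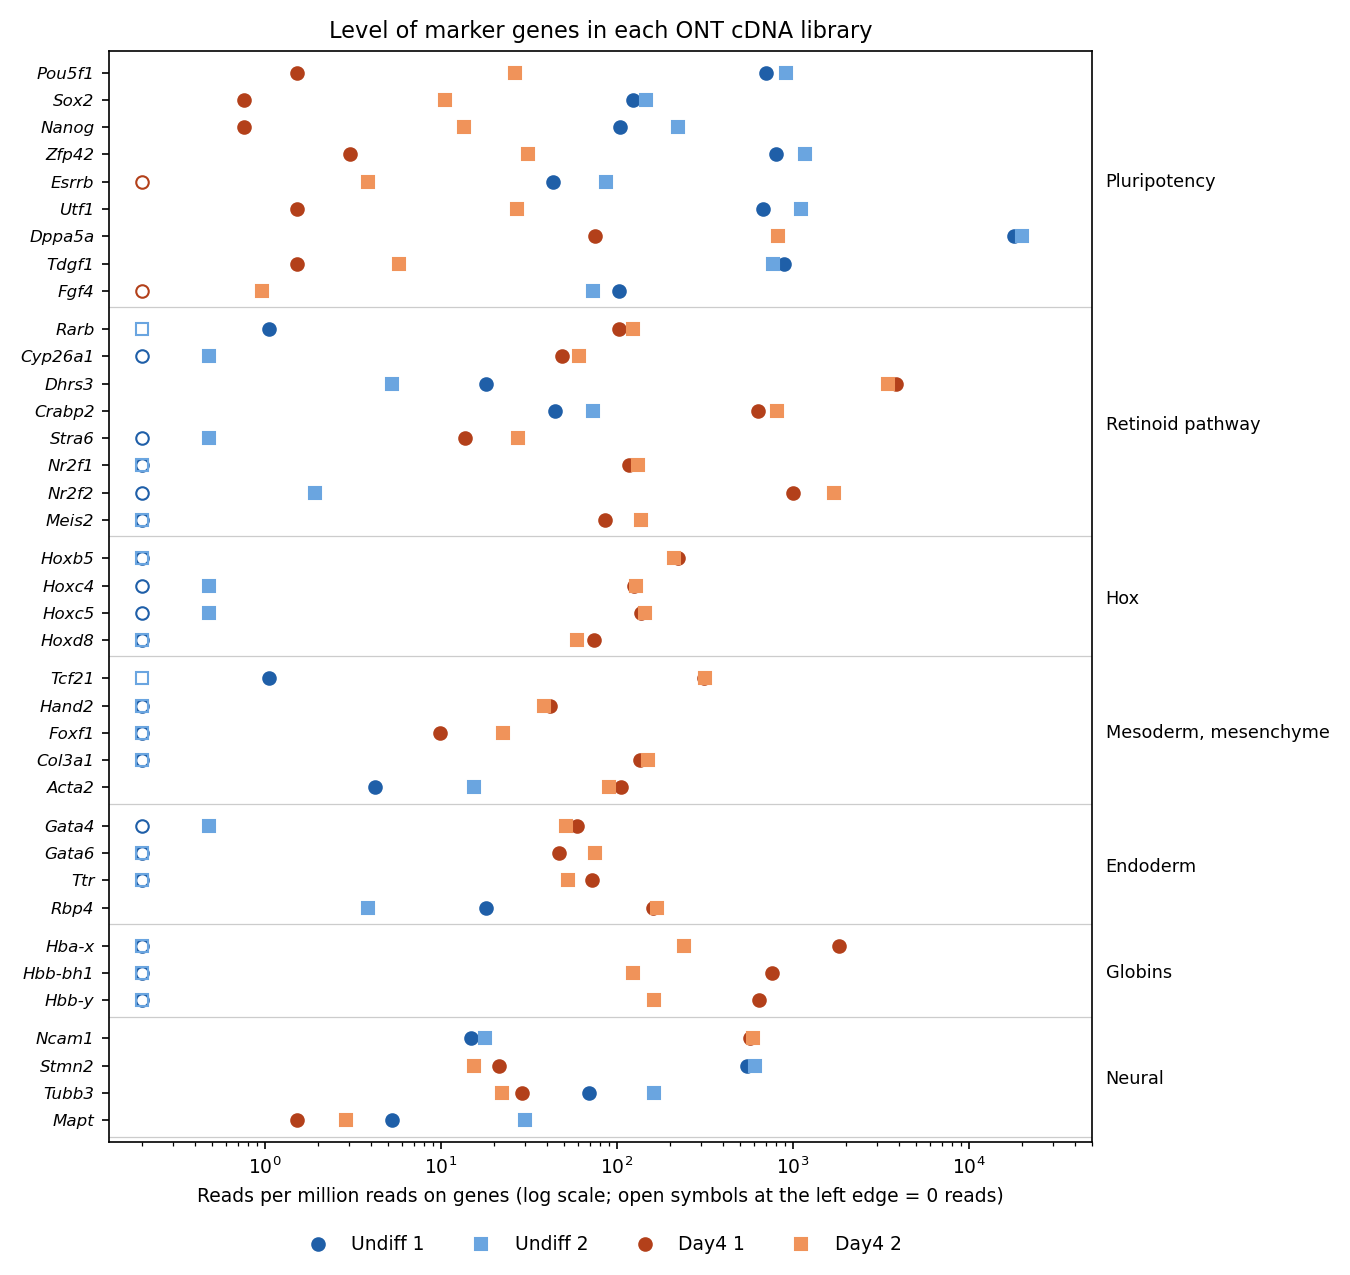
CPM (horizontal, log scale) of 37 genes in each of the 4 ONT cDNA libraries, with blue symbols for Undiff, orange symbols for Day4, circles for replicate 1 and squares for replicate 2, and open symbols at the left edge for 0 reads. The pluripotency genes lie to the right in Undiff. The retinoid, Hox, mesoderm and endoderm genes shown, all picked from those called higher, lie to the right at Day4. The Day4 replicates lie close for the Hox genes and lie apart for the pluripotency genes and the globins.

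Tcf21, a factor of the mesenchyme around developing organs, had 1 and 0 reads in Undiff and 411 and 654 at Day4 (DESeq2 adjusted p = 2e-16). Its pooled ratio was 950 with a 95% counting interval of 170 to 38000. Hand2, a factor of lateral mesoderm, had no reads against 55 and 80, and Foxf1, a factor of visceral mesoderm, no reads against 13 and 47. For these 3 genes every Day4 library was above every Undiff library. Of 22 early mesoderm genes in the list 10 were tested and 7 were higher (median 4.00), also Twist1, Twist2, Foxc2 and Meox1. The other 3 tested members, Mixl1, Mesp2 and Wnt3, were not called, and 12 of the list were under the minimum count. With 1 library left out, 2 to 4 of this list were higher: Twist2, Foxc2 and Meox1 were lost in all 4 fits, Foxf1 without the second library of either state and Twist1 without the second Day4 library. T (Brachyury), the factor of the primitive streak, had 1 read in all 4 libraries together and was not tested.

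Of 10 tested fibroblast genes 6 were higher, and of 14 tested collagens 5, with none lower in either list (3 to 4 and 2 to 3 with 1 library left out). Col3a1, a fibrillar collagen, had no reads in Undiff and 179 and 314 at Day4, at least 62-fold higher, and Col1a2 had no reads against 85 and 100. Mmp2, a matrix protease, changed by 5.73 ± 0.77, and Serpinh1 (HSP47), the chaperone of collagen, went from 19 and 52 reads to 1115 and 2307 (5.01 ± 0.41, DESeq2 adjusted p = 4.4e-31). Of 15 genes for collagen processing 3 were higher (3 to 4 with 1 library left out), the other 2 being the prolyl hydroxylases P4ha1 and P4ha2. Of 13 matricellular genes 6 were higher (3 to 4 with 1 library left out) and 1, Spp1, was lower. Of 12 tested basement membrane genes 1 was called, Col4a5 with 0 and 0 against 9 and 22 reads, and of 8 integrins 1, Itga6 (-2.55). These shares, 8.33% higher and 12.5% lower, were near the 8.69% and 9.24% of all tested genes, and both calls were lost whichever library was left out (DESeq2 adjusted p between 0.13 and 0.63 for Col4a5 and between 0.068 and 0.31 for Itga6).

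Of 16 tested genes of smooth muscle and actin filaments, 4 (25%) were higher, Acta2, Cald1, Zyx and Tpm4, and 1 (6.25%) was lower, beside 8.69% and 9.24% of all tested genes. With 1 library left out 2 to 3 were higher and 0 to 1 lower. Acta2, the smooth muscle actin, had 4 and 32 reads against 139 and 188 (log2 fold change 2.84 ± 0.59, DESeq2 adjusted p = 6e-05). Of 7 cardiac genes tested, Tnni1, the troponin of fetal heart and slow muscle, and Mef2c were higher (28.6%, and 1 to 3 with 1 library left out). Of 7 endothelial genes tested 3 (42.9%) were higher (2 to 3 with 1 library left out), among them Emcn (endomucin, 0 and 0 reads against 50 and 76) and Cldn5, a tight junction protein of vessels (3 and 2 against 93 and 116), while Plvap was lower. The calls of Zyx and Plvap were lost whichever library was left out, that of Mef2c in 3 of 4 fits and that of Acta2 without the first Day4 library (DESeq2 adjusted p = 0.061). Pecam1, Kdr and Vwf were tested and not called, and markers of vessels such as Cdh5 and Tie1 were under the minimum count.

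Gata6 and Gata4, factors of the primitive endoderm and of mesoderm, had 0 and 0 reads and 0 and 1 reads in Undiff, and 62 and 155 reads and 78 and 107 reads at Day4 (DESeq2 adjusted p = 2.6e-07 and 6.8e-07). Gata6 was at least 26-fold higher by mean CPM, and the pooled ratio for Gata4 was 170 with a counting interval of 29 to 6600. Sox17, a defining factor of endoderm, had 0 and 0 reads against 1 and 2, and 12 of 18 endoderm factors were under the minimum count. Of the 6 tested, 2 (33.3%), Gata6 and Gata4, were higher and 1 (16.7%), Sall4, was lower. The other 3, Foxa1, Cxcr4 and Hhex, were not called. Of 12 visceral endoderm genes tested 5 (41.7%) were higher and 2 (16.7%) were lower, beside 8.69% and 9.24% of all tested genes, and with 1 library left out 3 to 5 were higher and 1 to 2 lower. Ttr (transthyretin) had no reads in Undiff and 95 and 109 at Day4, at least 27-fold higher, and Rbp4, the retinol carrier of plasma, went from 17 and 8 to 211 and 349 reads (3.53 ± 0.60). Afp, the classical marker, had 0 and 0 reads against 3 and 31 and missed the threshold, with a DESeq2 adjusted p that lay just above 0.05. Apoe was lower, with 439 and 1795 reads against 188 and 285 (-2.50 ± 0.41). Of 15 parietal endoderm genes tested 7 (46.7%) were higher (5 to 7 with 1 library left out) and none was lower, among them Plat, the tissue plasminogen activator, with no reads against 121 and 243. The abundant laminins of that tissue were not called: Lamb1 changed by 0.78 ± 0.78 and Lamc1 by -0.41 ± 0.68.

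Embryonic globins had no read in either Undiff library. Hba-x (zeta globin) had 2406 and 501 reads in the Day4 libraries, or 1825 and 241 CPM, Hbb-bh1 had 1008 and 255 reads, and Hbb-y had 849 and 337 reads. All 3 were DEGs, at least 449-fold, 193-fold and 175-fold higher than the limit of detection in Undiff, with DESeq2 adjusted p = 0.032, 0.012 and 9.2e-05. From the second Day4 library alone these bounds were 105-fold, 53.4-fold and 70.6-fold. Both Day4 libraries were above 0, and the first was the higher one for each globin. Without the first or second Undiff library the DESeq2 adjusted p was 0.34 or 0.38 for Hba-x and 0.22 or 0.25 for Hbb-bh1. The adult gene Hba-a1 and the leukocyte gene Ptprc had no read in any of the 4 libraries. Runx1, a factor of early blood, had 2 and 1 reads against 17 and 39, a call that was lost whichever library was left out (DESeq2 adjusted p between 0.061 and 0.7), and Cd68, a lysosomal protein of macrophages, was lower (45 and 72 against 6 and 8).

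Of 24 neural genes in the list, 2 had no read, 15 had a higher mean CPM at Day4 and 7 had a lower one. The minimum count was met by 10, of which 1 (10%) was higher and 3 (30%) were lower, beside 8.69% and 9.24% of all tested genes, with a median log2 fold change of -0.15 (1 higher and 1 to 3 lower with 1 library left out). Ncam1, a cell adhesion molecule also present in mesoderm, had 14 and 37 reads in Undiff and 756 and 1235 at Day4 (4.74 ± 0.43, DESeq2 adjusted p = 6.3e-25). Stmn2, a microtubule regulator of neurons, had 523 and 1278 reads against 28 and 32 (-5.22 ± 0.43, DESeq2 adjusted p = 8.5e-31), Tubb3 had 66 and 339 against 38 and 46 (-2.42 ± 0.53), and Mapt (tau) had 5 and 63 against 2 and 6. For these 3 genes the Undiff CPM were above the Day4 CPM, although the call of Mapt was lost in 3 of the 4 fits with a library left out and that of Tubb3 without the second library of either state. Nes (nestin) had 1 and 5 reads against 15 and 32 and was not called (2.24 ± 1.02, DESeq2 adjusted p = 0.16). Pax6 had 2 and 9 reads against 5 and 7 and was not called either (-0.151 ± 1.185, DESeq2 adjusted p = 0.96). Sox1, the earliest neural factor, had no read in any of the 4 libraries. The 14 neural genes that were not tested had at most 17 reads over the 4 libraries. Of 8 trophoblast genes tested Krt18 (12.5%) was higher (1.13) and Ascl2 and Rhox6 (25%) were lower, against 0 higher and 0 to 3 lower with 1 library left out. The call of Krt18 was lost whichever library was left out (DESeq2 adjusted p between 0.12 and 0.64), that of Rhox6 in 3 of the 4 fits, with TMM factors (0.056) and with length-bin factors (0.2), and that of Ascl2 without the second Undiff or second Day4 library.

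Cdh1 (E-cadherin), which joins epithelial cells and ESCs, had 117 and 270 reads in Undiff and 6 and 19 at Day4 (log2 fold change -4.37 ± 0.54, DESeq2 adjusted p = 9e-14). Cdh2 (N-cadherin) had 1 and 6 reads against 43 and 84 (3.48 ± 0.82), and Vim (vimentin), the filament of mesenchymal cells, had 34 and 119 against 512 and 840 (2.72 ± 0.42). Neither cadherin overlapped between the states in CPM, and nor did Vim. Snai2, a repressor of Cdh1, had 0 and 1 reads against 20 and 67. Of 19 tested genes of the epithelial and mesenchymal states, 8 were higher and 2, Cdh1 and Epcam, were lower. The higher ones included the epithelial keratins Krt18 and Krt19, and 6 other epithelial genes were not called. With 1 library left out 3 to 6 were higher. The calls lost included Krt18 in all 4 fits, Cdh2 without either Day4 library and Snai2 without the second library of either state.

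Imprinted genes and genes of insulin-like growth factor signalling were higher in 20 of 30 tested cases (66.7%, and 14 to 15 with 1 library left out) and lower in 1, with a median of 2.28. Igf2, the fetal growth factor expressed from the paternal allele, had 5 and 9 reads in Undiff and 692 and 1900 at Day4 (log2 fold change 6.71 ± 0.54, DESeq2 adjusted p = 3.2e-32). Dlk1, a Notch-like ligand, had 0 and 3 reads against 379 and 760, and Cdkn1c (p57), an inhibitor of the cell cycle, had 9 and 26 against 235 and 593 (3.94 ± 0.50). The states were separated for all 3. H19, the maternal noncoding RNA beside Igf2, was higher, with 72 and 42 reads against 1275 and 710 (3.03 ± 1.03, DESeq2 adjusted p = 0.032). Without the second Undiff or the second Day4 library the DESeq2 adjusted p of H19 was 0.34 or 0.099. Igf2, Cdkn1c and H19 each overlap a gene on the other strand.

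Of 18 tested genes of FGF and ERK signalling, 7 were lower (5 to 6 with 1 library left out) and 1, Fgf5, was higher, a call that was lost whichever library was left out (DESeq2 adjusted p between 0.08 and 0.63). Etv5, a factor that ERK switches on, had 395 and 394 reads against 4 and 11 (log2 fold change -6.26 ± 0.59, DESeq2 adjusted p = 2.9e-23), and the feedback inhibitors Spry2 and Spry4 changed by -3.49 and -3.53 and Dusp6 by -1.47, the last of these calls being lost in 3 of the 4 fits with a library left out. Of 8 genes of LIF and STAT3 signalling 1 was lower, Socs3, the feedback inhibitor that STAT3 switches on (112 and 168 reads against 22 and 22, -3.10 ± 0.54), a share of 12.5% beside the 9.24% of all tested genes. Of 21 tested BMP and TGF-beta genes 7 were higher (5 to 6 with 1 library left out) and none was lower. Id3, a target of BMP signalling, had 87 and 452 reads against 3732 and 5147 (3.74 ± 0.43), and the ligands Tgfb2 and Tgfb3 had 2 and 0 and 0 and 0 reads against 218 and 340 and 97 and 313, the call of Tgfb2 being lost without either Day4 library. Of 26 tested Wnt genes 11 were higher and 1 was lower (2 to 6 higher with 1 library left out). They included the ligand Wnt4 (0 and 2 reads against 122 and 134) and the secreted modulator Sfrp1 (7 and 37 against 943 and 2928, 5.84 ± 0.48), and the lower one was Sfrp4. Of 10 Notch genes 2 (Hey1, Dll4) and of 13 genes of the Hippo pathway 2 (Axl, Amotl1) were higher, and none was lower in either list, shares of 20% and 15.4% beside the 8.69% of all tested genes. With 1 library left out 0 to 1 and 0 to 2 of them were higher: Dll4 was lost in all 4 fits, Hey1 and Axl in 2 and Amotl1 in 1.

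Genes of ribosome production and of protein synthesis were lower in part. Of 25 genes for the making of ribosomes, all of them tested, 13 were lower and none was higher, with a median log2 fold change of -1.18 (3 to 8 lower with 1 library left out). Their summed level was 20350 and 19230 CPM in Undiff and 9473 and 9396 CPM at Day4. Nhp2, a core protein of the particles that modify ribosomal RNA, had 2823 and 4537 reads against 799 and 865 (-2.60 ± 0.41, DESeq2 adjusted p = 2.4e-08), and the nucleolar proteins Npm1 and Ncl changed by -1.20 and -1.43. Mycn, the MYC paralog of ESCs, had 162 and 368 reads against 62 and 200 (-1.59 ± 0.45, DESeq2 adjusted p = 0.0055). The call of Npm1 was lost whichever library was left out, and those of Ncl and Mycn in 3 of the 4 fits. Of 21 genes of one-carbon and amino acid metabolism 8 were lower (4 to 8 with 1 library left out) and none was higher, among them Gldc of the glycine cleavage system (25 and 48 reads against 1 and 5), Mthfd2 (-2.33) and Asns (-1.99). Of 23 translation factors 4 were lower (17.4%, and 2 to 4 with 1 library left out), led by Eif4a1 (-2.90), whose call was lost without either Day4 library, whereas of 77 mitochondrial ribosomal proteins 9 (11.7%) were lower, near the 9.24% of all tested genes, and 1 to 4 with 1 library left out.

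Cytosolic ribosomal proteins were lower in 35 of 78 tested cases and higher in none, with a median of -1.09 (8 to 24 lower with 1 library left out). The 2 with the largest change, Rpl39l and Rpl10l, are autosomal relatives of widely expressed ribosomal proteins. Rpl39l had 206 and 592 reads in Undiff and 1 and 10 at Day4 (log2 fold change -6.44 ± 0.59, DESeq2 adjusted p = 1.5e-24), and Rpl10l had 75 and 500 against 1 and 11 (-5.64 ± 0.67), so that the states did not overlap. Ribosomal protein genes have many near-identical copies in the genome, and reads on them may be split or set aside in counting. The summed level of the list was 71040 and 64300 CPM in Undiff and 60240 and 50710 CPM at Day4. In the Direct RNA libraries of the series it was 53330 and 58390 CPM in Undiff and 45090 and 64230 CPM at Day4. The member with the most reads, Rpl8, was not called (-0.62 ± 0.38, DESeq2 adjusted p = 0.39).

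These short transcripts bear on a difference between the libraries. In the 4 cDNA libraries the share of reads on genes whose annotated transcript is at most 1000 bases long was 18.8% and 15.9% in Undiff and 16.8% and 11.4% at Day4. The median log2 fold change was -0.42 over the 556 tested genes of that length, with 7.55% called higher and 22.8% lower, and 0.17 over the 1349 genes in the longest class, with 8.67% higher and 5.86% lower. With size factors estimated separately within 10 bins of transcript length, 977 genes (9.5%) were higher and 1019 (9.91%) were lower of 10285 tested, and the medians became -0.01 and 0.05. Under these factors the ribosomal proteins called lower fell from 35 to 23, with a median of -0.765, whereas the genes for making ribosomes went from 13 to 15. The median of the 76 tested genes of oxidative phosphorylation, of which 3 were lower (0 to 3 with 1 library left out), went from -0.27 to -0.005. The part of read length in the fall of short genes was not tested.

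**Figure D3:**
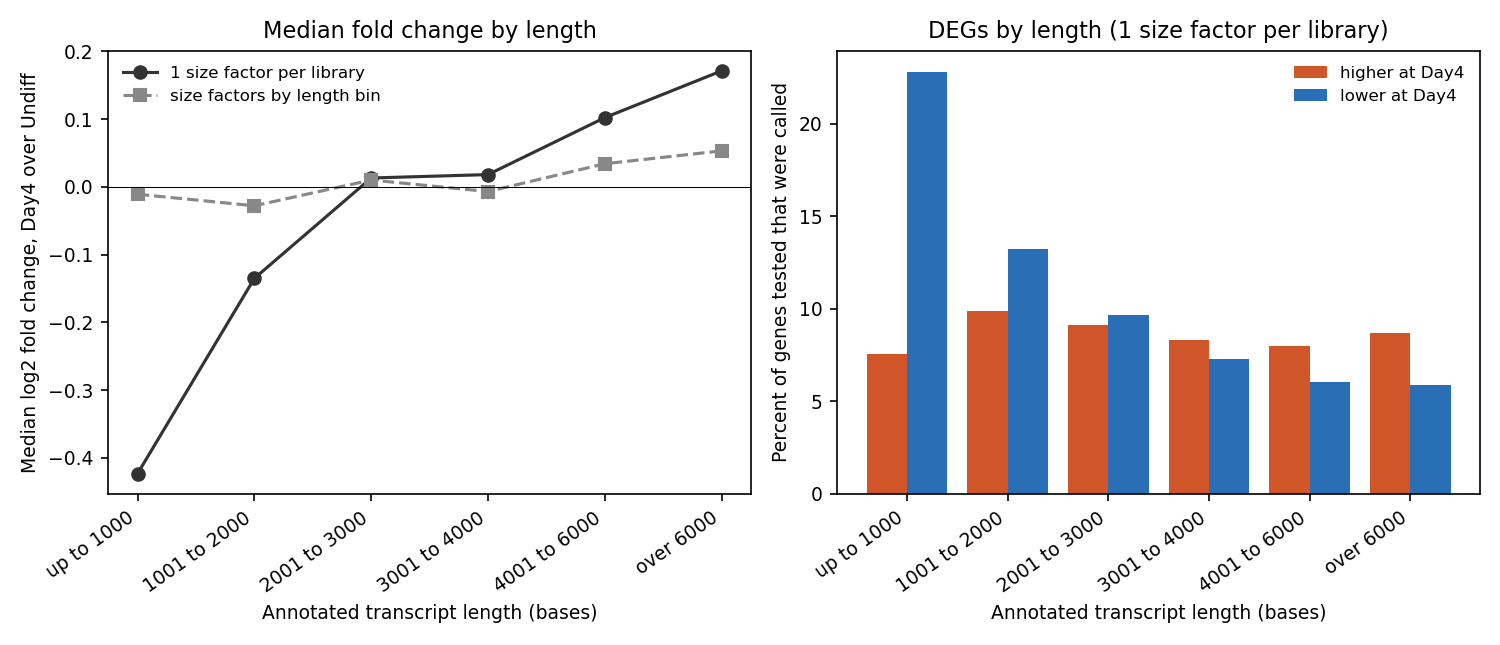
Left, the median log2 fold change, Day4 over Undiff, of the tested genes in 6 classes of annotated transcript length, with 1 size factor per library (circles) and with size factors estimated within length bins (squares). Right, the percentage of tested genes called higher (orange) or lower (blue) in each class with 1 size factor per library, where the lower calls fall from 22.8% in the shortest class to 5.86% in the longest.

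Of 30 tested cell cycle genes, 2 were higher and 5 were lower, and of 32 genes of DNA replication 5 were lower and none was higher. The shares lower were 16.7% and 15.6%, beside 9.24% of all tested genes, and with 1 library left out 1 cell cycle gene and 0 to 2 replication genes were lower. Ccnd2 (cyclin D2) had 12 and 17 reads in Undiff and 291 and 831 at Day4 (log2 fold change 4.47 ± 0.51, DESeq2 adjusted p = 5e-16), while Ccne1 (cyclin E1), which is high in ESCs, had 73 and 292 against 22 and 60 (-2.50 ± 0.51, DESeq2 adjusted p = 0.078 without the second Undiff library). Of 23 chromatin genes of the Polycomb and NuRD complexes 6 were lower and 1 was higher (3 to 5 lower with 1 library left out), among the lower Eed, the core subunit of PRC2 (-2.05), its cofactor Mtf2 (-2.47) and Cbx7, the PRC1 subunit of ESCs (-3.08). In the BAF remodelling complex, Smarca2, the alternative ATPase, had 1 and 0 reads against 54 and 66, and 3 of 17 members were higher (1 to 2 with 1 library left out) and 1, Actl6a, was lower (-1.19), a call that was lost whichever library was left out (DESeq2 adjusted p between 0.065 and 0.46), as was that of Cbx7 in 2 of the 4 fits.

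Beside the background of 17.9% called, of 37 genes of the endoplasmic reticulum and secretion 2 were higher and 1 was lower (0 to 1 each with 1 library left out), of 38 proteasome genes 3 were lower (0 to 3), and of 23 splicing regulators 1 was called in each direction (0 to 1 higher). In glycolysis 3 of 22 were higher, among them Tpi1 (1.43), and 4 were lower (0 to 3 in each direction with 1 library left out). In cholesterol and fatty acid synthesis 3 of 29, the desaturases Fads1, Fads2 and Scd2, were higher and 2 were lower (2 to 3 and 0 to 3 with 1 library left out). Lysosomal genes were higher in 7 of 23 cases (3 to 6 with 1 library left out) and lower in none, with Ctsb (cathepsin B) at 138 and 361 reads against 835 and 1688 (log2 fold change 1.82 ± 0.37, DESeq2 adjusted p = 3.4e-05) and Lamp2 at 31 and 63 against 229 and 521. Of 23 chaperones 3 were lower, Hspb1 most (-3.69), and so were 5 of 16 tubulins and stathmins (1 to 4 and 2 to 5 with 1 library left out). Of 15 annexins and S100 proteins 4 were higher, such as Anxa5 (3.83), and 5 were lower, such as S100a6 (-2.79), but with 1 library left out 2 to 4 were higher and 1 to 2 lower. Among 19 genes of p53 and stress responses Jun was higher and Bax and Trp53 were lower, but the call of Trp53 was lost whichever library was left out and those of Jun and Bax in 3 of the 4 fits. Among 20 noncoding RNAs 4 were higher and 3 were lower (2 to 4 and 1 to 3 with 1 library left out). Other calls lost with a library left out were those of Tpi1 and Hspb1 in 2 fits and Fads2 in 3.

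**Figure D4:**
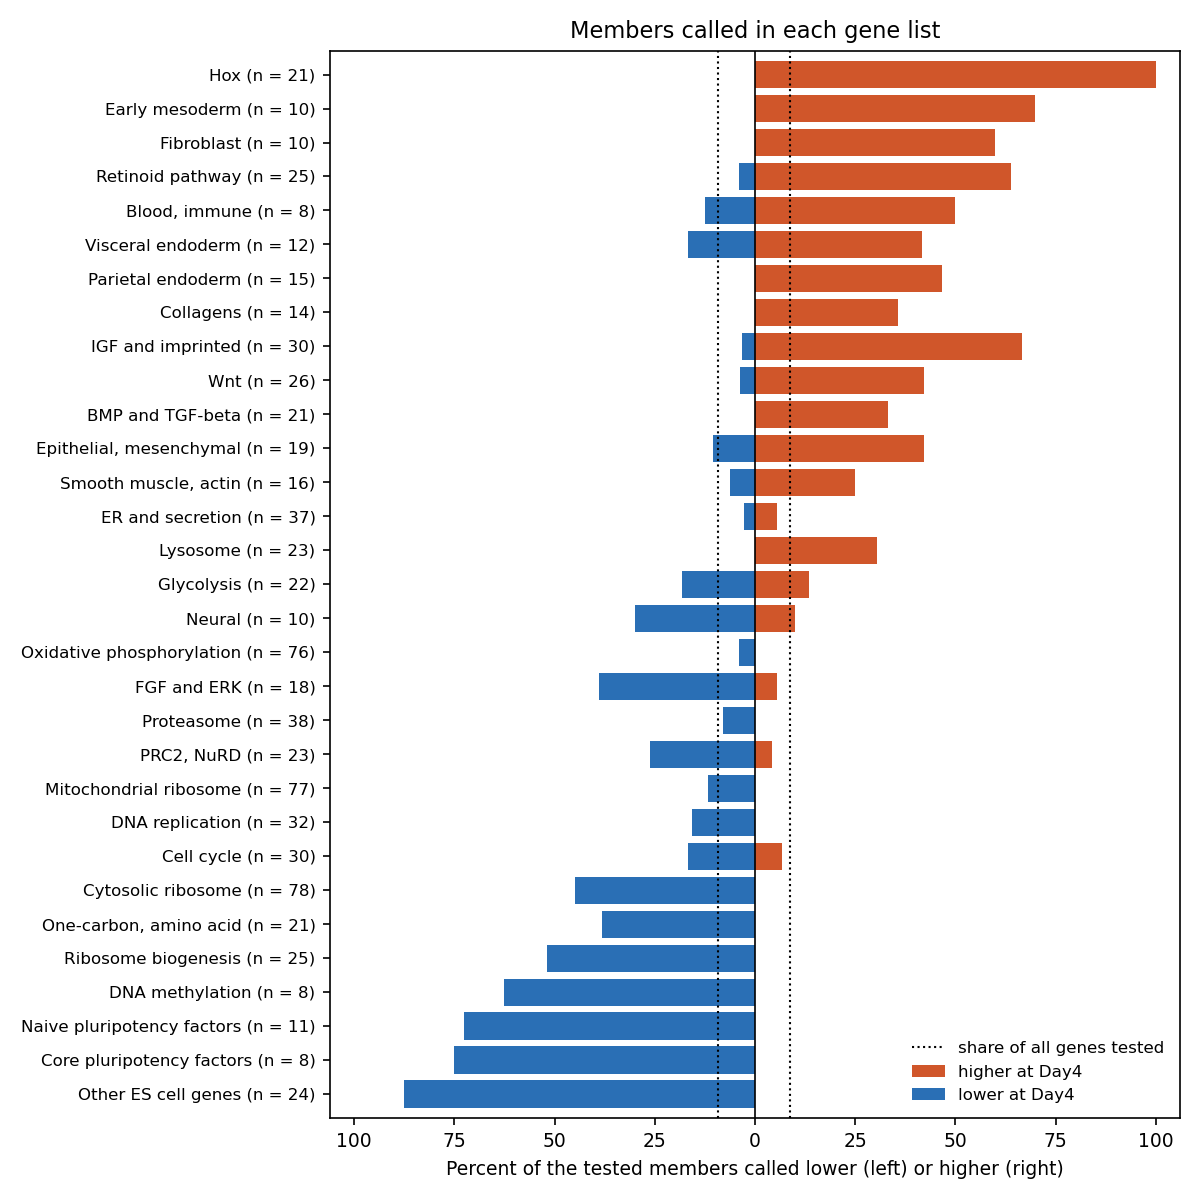
For 31 gene lists, ordered by median log2 fold change, the percentage of tested members (n beside each name) called higher at Day4 (orange, right) or lower (blue, left), with dotted lines at 8.69% and 9.24%, the shares of all tested genes. Hox genes reach 100% to the right, counting the 21 of 39 that met the minimum count, and the other ES cell genes reach 87.5% to the left.

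Nanog is the textbook case of a gene that OCT4 and SOX2 bind side by side, and its window is shown for that reason. The composite of a SOX and an OCT element (CATTGTNATGCAAA, both strands) was found in the promoter of 1 of 27025 genes, Nanog, at chr6:122707239-122707538 on the plus strand (GRCm38.p6), where the match begins 75 bases before the start and lies on the other strand. It is in capitals here.
Nanog promoter: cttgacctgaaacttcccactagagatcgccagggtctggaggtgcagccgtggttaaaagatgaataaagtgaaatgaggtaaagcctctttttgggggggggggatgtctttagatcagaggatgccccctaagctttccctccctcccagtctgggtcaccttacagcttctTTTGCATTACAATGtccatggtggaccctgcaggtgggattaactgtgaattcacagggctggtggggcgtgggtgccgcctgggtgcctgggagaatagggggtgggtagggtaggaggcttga
The OCT octamer alone (ATGCAAAT, both strands), which overlaps the composite in part, was present in the promoters of 532 genes (1.97%). It was found in 20 of 704 lower DEGs (2.84%), in 9 of 640 higher DEGs (1.41%) and in 93 of 6525 genes not called (1.43%), and Zfp42 and Spp1 were among the lower ones. These shares are descriptions with no test, and the promoters that hold the octamer include those of higher genes such as Aldh1a2 and Col3a1.

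The Day4 replicates differed in several of these groups. Summed over the core pluripotency factors, the level was 3615 and 4765 CPM in Undiff and 100 and 328 CPM in the first and second Day4 libraries, a ratio of 3.28 between the Day4 replicates. For the other ES cell genes the Day4 levels were 364 and 1487 CPM. Blood genes went the other way, with 3283 and 570 CPM at Day4. Retinoid genes, at 8567 and 9143 CPM, and Hox genes, at 1189 and 1241 CPM, were near one another in both Day4 libraries. In the Direct RNA libraries of the same series, which read RNA without amplification, the Day4 levels were 102 and 182 CPM for core factors, 1746 and 2004 CPM for other ES cell genes and 2177 and 925 CPM for blood genes. Most of the blood sum came from the 3 globins, each of which was lower in the second Day4 library with both kits (Hba-x, 1825 and 241 CPM by cDNA and 826 and 332 CPM by Direct RNA). Runx1 was at 12.9 and 18.8 CPM by cDNA and at 31.8 and 4.07 CPM by Direct RNA. Meg3, a maternal noncoding RNA, was among the 5 genes with the highest ratio of the second to the first Day4 library, with 76 and 1972 reads after 82 and 216 in Undiff, and was not called (log2 fold change 1.61 ± 1.21, DESeq2 adjusted p = 0.54). The part of the second library's remaining pluripotency reads in any result was not tested.

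**Figure D5:**
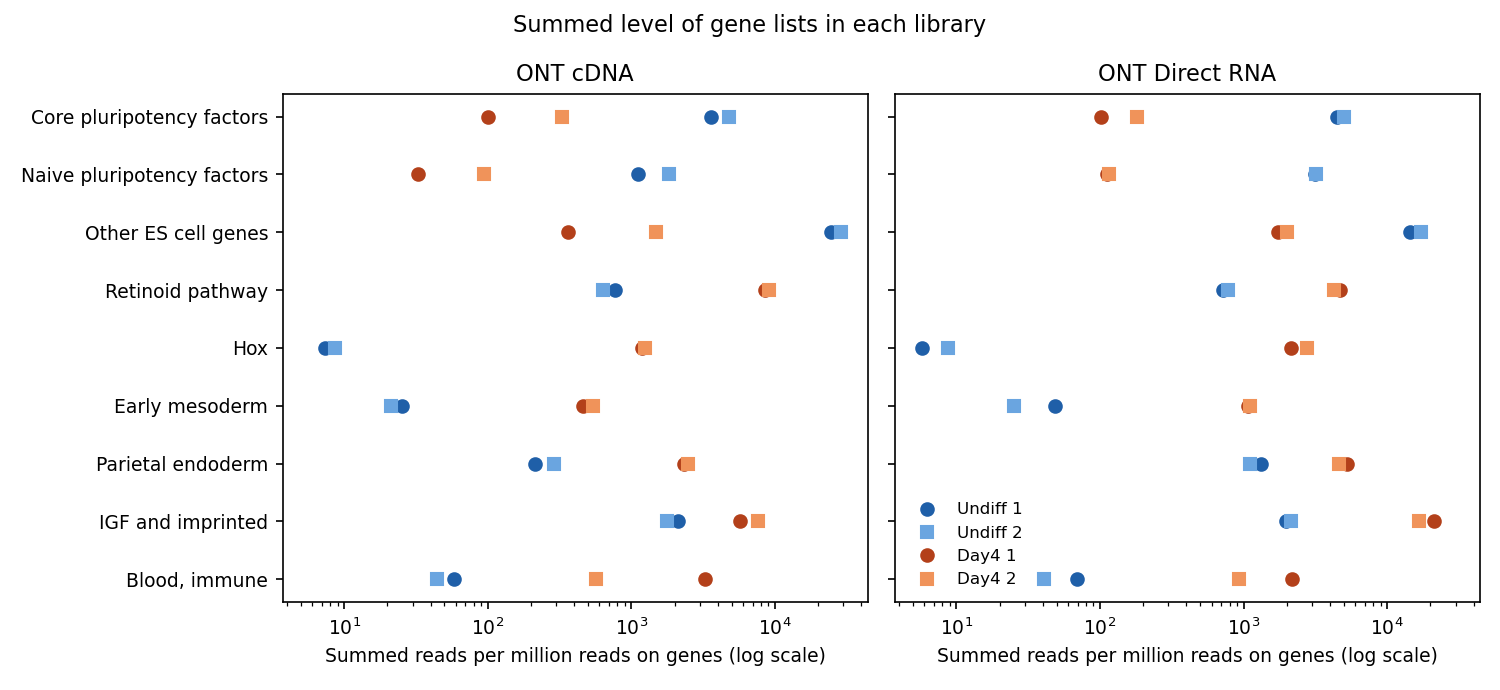
Summed CPM (horizontal, log scale) of 9 gene lists in the 4 ONT cDNA libraries (left) and the 4 ONT Direct RNA libraries (right), with circles for replicate 1 and squares for replicate 2. In cDNA the Day4 replicates lie at 100 and 328 for the core pluripotency factors and at 3283 and 570 for the blood genes, while the retinoid list lies at 8567 and 9143.

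The same change of state was measured by Direct RNA, which allows a test of whether a gene's change differed between the kits. An interaction fitted with DESeq2 over all 8 libraries was significant for 2 of 17267 genes (0.0116%) after adjustment, with 161 genes at an unadjusted p of at most 0.05. They were Clmp, a cell adhesion protein of tight junctions, and Plvap, a protein of the diaphragms of vessel walls. Clmp had 41 and 97 reads in Undiff and 11 and 52 at Day4 by cDNA, but 1 and 1 reads against 27 and 40 by Direct RNA, and Plvap had 20 and 61 against 8 and 11 by cDNA and 11 and 18 against 28 and 60 by Direct RNA. In the cDNA libraries the log2 fold changes were -1.70 ± 0.61 and -2.33 ± 0.73 (DESeq2 adjusted p = 0.05 and 0.016). Both of these calls were lost whichever cDNA library was left out, with DESeq2 adjusted p between 0.11 and 0.72 for Clmp and between 0.11 and 0.47 for Plvap, and with TMM factors that of Clmp was 0.056. Clmp overlaps a gene on the opposite strand. With 1 of the 8 libraries left out, between 0 and 13 genes passed, 13 without the second Undiff cDNA library. The interaction of Plvap passed in none of these fits (DESeq2 adjusted p between 0.2 and 1), and that of Clmp passed in 4 of 8, failing without the first Day4 cDNA library (0.059), either Undiff Direct RNA library (0.26 and 1) or the first Day4 Direct RNA library (0.15).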

How the data were processed

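RNA was measured in 8 ONT libraries, of which the 4 made with a cDNA-PCR kit from 50 ng of poly(A) RNA were compared and the 4 Direct RNA libraries served for the interaction. The deposited values are raw counts of reads, 1 value per gene symbol, that the authors obtained by aligning reads to mm10 with minimap2 and counting with HTSeq on a UCSC annotation, taking account of strandedness. Direct RNA was counted as strand-specific, and the setting for cDNA is not given in the sources used here. The counter lines for reads off genes were left out.

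Counts were fitted with DESeq2 1.42.0 in R 4.3.3 (Wald test, shrunken fold changes, no filtering by Cook's distance or by independent filtering), following the study's methods, and edgeR 4.0.16 (quasi-likelihood) was an alternative. DEGs had a Benjamini-Hochberg adjusted p of at most 0.05, an absolute log2 fold change of at least 1 and, over the 4 libraries, a mean count after normalization of at least 5. Adjustment covered all genes of the fit. GENCODE annotation gave lengths and strands for 24046 genes (98.5%), and promoters came from RefSeq. Ratios for genes with 1 to 3 reads in a state used reads and totals pooled over the libraries of each state and carry 95% exact counting intervals. Bounds for genes with 0 reads used mean CPM and 3 reads per library. The scripts were tested on simulated data, with the limits for passing loosened after a first run, and edgeR fitted on all genes made a larger share of false calls there than DESeq2.

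The comparison and the 53 gene lists were chosen with earlier results of these data known. Genes were named by rule: the 8 highest and 8 lowest changes, the DEGs with the most reads, up to 4 leading DEGs of each list and its member with the most reads, a set of markers, the genes with the most extreme replicate ratios at Day4 and the interaction genes. Not every gene that the rule picks is described. Those left out include some of the lowest changes and some DEGs with the most reads. The 24 of 165 named genes outside this rule served to describe a list and were chosen after their values were seen. Members of the mesoderm, endoderm and endothelial lists named only as not called were outside it too. Alternatives were other factors and filters, no shrinkage, length-bin factors, a replicate block, genes with no opposite-strand overlap and leaving out each library.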

Additional observations from a re-analysis of the deposited data

Results flagged for a closer look

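For Clmp, a cell adhesion protein, the change from Undiff to Day4 differed between the kits, being lower at Day4 by cDNA (log2 fold change -1.70) and higher by Direct RNA (4.58). The interaction, cDNA minus Direct RNA, was -7.16 ± 1.36 (SE, DESeq2 adjusted p = 0.0025). For Plvap, a protein of vessel walls, the changes were -2.33 by cDNA and 1.67 by Direct RNA, and the interaction was -4.24 ± 0.93 (DESeq2 adjusted p = 0.039), which no fit with 1 library left out called. Clmp had 1 read in each Undiff Direct RNA library.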

How the results depend on the processing

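With edgeR the number of DEGs was 3348 (1749 higher, 1599 lower) on all genes, the fit that made more false calls on simulated data, and 2899 (1497 higher) when fitted on genes with a mean count of at least 5, a setting chosen after seeing the data, and these included 1842 and 1833 of the 1842 DEGs. Leaving out 1 cDNA library gave 709 to 1020 DEGs, 327 to 567 higher and 382 to 453 lower. The cause was not tested. The interaction called 14 genes with edgeR and 0 to 13 with a library left out, and under the block Plvap was not called (DESeq2 adjusted p = 0.12) while Clmp was (0.022). With a replicate block 1375 genes were called, 1299 of them among the reported ones. Of 152 DEGs named in the text, 36 were not called under the block, many of them with no reads in 1 state (Igfbp5, adjusted p = 0.72 by DESeq2), and 30, 53, 37 and 40 were not called without Undiff 1, Undiff 2, Day4 1 and Day4 2, with none in the opposite direction. Among genes not called, with a library left out Meg3 ranged from -0.861 to 2.856 and Rara from -0.071 to 0.086. Replicate numbers were not stated to mark shared cultures across states, and the replicate differences of Undiff and Day4 correlated at 0.401 across 3189 genes, which are not independent (0.344 after length medians were removed). Without the 10 genes with the most reads, the Day4 to Undiff ratio of summed CPM became 0.9809 for tubulins and stathmins and 0.982 for cholesterol and fatty acid genes, on the other side of 1. With 2 libraries per state and 948657 to 2088592 reads, genes with a mean normalized count under 5 were not tested.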
